A study of Homo sapiens with 12 samples.

Results

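The transcripts of the 10 enzymes of the choline and ethanolamine branches of phospholipid synthesis, known together as the Kennedy pathway, were followed in C4-2 cells after knockdown of choline kinase alpha (CHKA). The 10 were chosen by their place in the pathway, matched by Ensembl identifier, and found among 54127 genes in the count tables. They comprise the kinases CHKA, CHKB, ETNK1 and ETNK2, the cytidylyl transferases PCYT1A and PCYT2, the phosphotransferases CHPT1, CEPT1 and SELENOI, and the methyltransferase PEMT. All 10 passed the expression filter that left 14501 genes for testing.

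C4-2 is a castration-resistant human prostate cancer line derived from LNCaP, and it was grown in RPMI medium with serum. Both groups were reverse-transfected with 50 nM of a small interfering RNA pool, either against CHKA (siCHKA, 6 samples) or nontargeting (siNT, 6 samples), and RNA was sequenced as single-end reads of 40 bases. No allele or further agent distinguished the groups, and every comparison is between siCHKA and siNT. A figure legend of the study speaks of biological triplicates for its knockdown gene lists and of 6 biological replicates for single genes. The labels do not say which samples are separate cultures. The p-values therefore measure only the spread between these samples, which may be technical.

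In the choline branch, a choline kinase adds a phosphate to choline, a CTP:phosphocholine cytidylyl transferase turns phosphocholine into CDP-choline, and a cholinephosphotransferase joins it to diacylglycerol to give phosphatidylcholine, the main phospholipid of most mammalian membranes. The ethanolamine branch runs through the same chemistry, from ethanolamine kinase to phosphatidylethanolamine, and PEMT links both branches by methylating phosphatidylethanolamine to phosphatidylcholine, a route known mainly from liver. CHKA also phosphorylates ethanolamine, and CEPT1 accepts both CDP-choline and CDP-ethanolamine, so the branches share enzymes as well as steps.

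Family resemblance matters here because related transcripts could share reads or siRNA targets. The coding sequence of each of the 4 kinases held 1 match to the catalytic loop of the choline kinase family, given here from the GENCODE 44 transcripts with the codons of its 3 fixed residues (histidine, aspartate and asparagine) in capitals. The windows lie at chr11:68066506-68068903 (minus strand, across an exon junction) for CHKA, chr22:50580261-50580382 (minus strand, across an exon junction) for CHKB, chr12:22661154-22661189 (plus strand) for ETNK1 and chr1:204141331-204141366 (minus strand) for ETNK2, all in GRCh38.
CHKA: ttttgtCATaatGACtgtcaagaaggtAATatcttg
CHKB: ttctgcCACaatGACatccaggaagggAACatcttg
ETNK1: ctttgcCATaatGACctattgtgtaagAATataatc
ETNK2: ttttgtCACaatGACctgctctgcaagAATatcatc
CHKA and CHKB had the same base at 27 of the 36 positions, and ETNK1 and ETNK2 at 28, whereas CHKA shared 19 with ETNK1 and 22 with ETNK2.

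The 3 phosphotransferases each held 1 match to the signature of the CDP-alcohol phosphotransferase family, shown with the codons of its 7 fixed residues in capitals. These windows lie within single coding exons on the plus strand, at chr12:101714150-101714230 for CHPT1, chr1:111159440-111159520 for CEPT1 and chr2:26373369-26373449 for SELENOI, in GRCh38.
CHPT1: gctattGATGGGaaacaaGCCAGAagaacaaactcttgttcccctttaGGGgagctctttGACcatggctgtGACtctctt
CEPT1: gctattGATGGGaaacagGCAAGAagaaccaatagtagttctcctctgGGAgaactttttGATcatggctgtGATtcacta
SELENOI: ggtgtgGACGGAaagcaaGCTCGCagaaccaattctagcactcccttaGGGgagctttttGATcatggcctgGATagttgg
CHPT1 and CEPT1 agreed at 64 of the 81 bases, CHPT1 and SELENOI at 54, and CEPT1 and SELENOI at 53.

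Whole coding sequences were compared by identical aligned bases as a share of the longer sequence. By this measure the closest pairs were CHPT1 with CEPT1 (62.7%), ETNK1 with ETNK2 (59.8%) and CHKA with CHKB (56.6%). Bases of the longer sequence left unaligned count as different here, and the order of these pairs depends on that choice. The longest run of bases that any pair of the 10 transcripts had in common was 22, shorter than a read of 40 bases. The longest run that CHKA had in common with another of the 10 was 14 bases, with PCYT1A. The siRNA sequences are not given in the sources used here, so their match to these transcripts was not tested.

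Between 10685184 and 24246055 reads per sample were counted on genes (median 17593747). Within siCHKA, replicates 1, 3 and 5 stood apart from replicates 2, 4 and 6 in root-mean-square log2 distance over 9636 genes. The distances were 0.128 to 0.142 and 0.101 to 0.117 within the sets and 0.208 to 0.287 across them. They were 0.120 to 0.251 within siNT and 0.477 to 0.557 between the groups. In siNT, replicates 1 to 3 were 0.123 to 0.141 apart and replicates 4 to 6 0.120 to 0.191, against 0.188 to 0.251 across. The prostate markers KLK3, KLK2, HOXB13, TMPRSS2 and FOLH1 were expressed in every sample, although 4 of these 5 were lower and 1 higher after siCHKA (HOXB13 was not past the threshold with total counts or without siCHKA replicates 1, 3 and 5), with summed levels of 2950.2 to 4315 CPM (reads scaled to library size with TMM factors) after siCHKA and 4309 to 5680.2 CPM after siNT. Of the 7 markers of other cell types, PECAM1 had no matching identifier, PTPRC, KRT5, TP63 and CHGA had at most 4 counts in any sample, and COL1A1 and SYP were higher after siCHKA (SYP not past the threshold without siCHKA replicates 2, 4 and 6, and with overlapping groups), which set the summed levels of 25.4 to 32.7 CPM after siCHKA and 12.9 to 19.5 CPM after siNT. The part of these shifts in the results was not tested, and in bulk RNA fewer cells of a type cannot be told apart from less RNA per cell.

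The targeted transcript was measured first. CHKA, which encodes the kinase that commits choline to the pathway, lies on the minus strand at chr11:68052859-68121444 in GRCh38. Its level ranged from 1.91 to 4.67 CPM after siCHKA (median 2.31) and from 36.7 to 43.3 CPM after siNT (median 41.6). Every siCHKA sample lay far below every siNT sample, with replicate 4 the highest of the knockdown group. The means of 2.75 ± 1.03 and 40.7 ± 2.55 CPM (SD, n = 6) gave a log2 fold change of -3.88 ± 0.14 (SE; edgeR's quasi-likelihood test, Benjamini-Hochberg adjusted p = 5.89e-13), or 6.80% of the siNT level with a 95% interval from 5.52% to 8.39%. Only 2 of the 14501 tested genes fell by more. The fall was -3.61 without siCHKA replicates 1, 3 and 5 and -4.27 without replicates 2, 4 and 6. Of the 2714 bases of the CHKA transcript, 631 overlap a gene on the other strand (ENSG00000255031), which itself had 1 to 16 counts per sample.

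**Figure D1:**
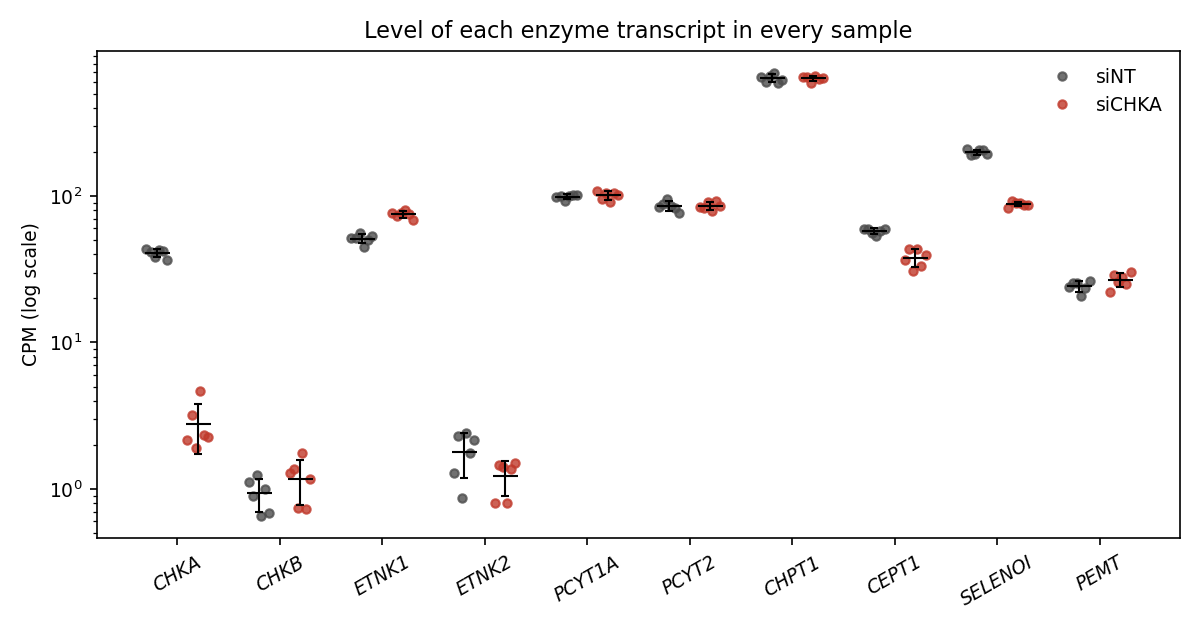
Level of each of the 10 transcripts in every sample, in CPM on a log axis, for siNT (grey) and siCHKA (red), with bars for mean ± SD (n = 6 per group). CHKA, CEPT1 and SELENOI lay lower after siCHKA and ETNK1 higher, with no overlap between the groups, while the other 6 overlapped.

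Of the 10 transcripts, 3 fell (CHKA, SELENOI and CEPT1), 1 rose (ETNK1) and 6 did not pass the test. Over all tested genes, 30.1% were lower and 32.1% were higher by the same rule, so a share of 3 in 10 lower is near the background. The groups did not overlap for 4 of the 10, the same ones, against 40.6% of all tested genes. Both counts include CHKA, the siRNA target, whose fall was the purpose of the knockdown. The median log2 fold change was -0.00 over the 10 and 0.03 over all tested genes. Where the log2 scale was set by total counts without TMM, the median over all genes moved up by 0.15 and the share of all calls that were higher went from 51.5% to 69.0%. The direction and the call of CHKA, SELENOI, CEPT1 and ETNK1 held under that scaling, whereas PCYT1A, PCYT2, CHPT1 and PEMT then passed the test as higher (0.18, 0.15, 0.15 and 0.29).

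**Figure D2:**
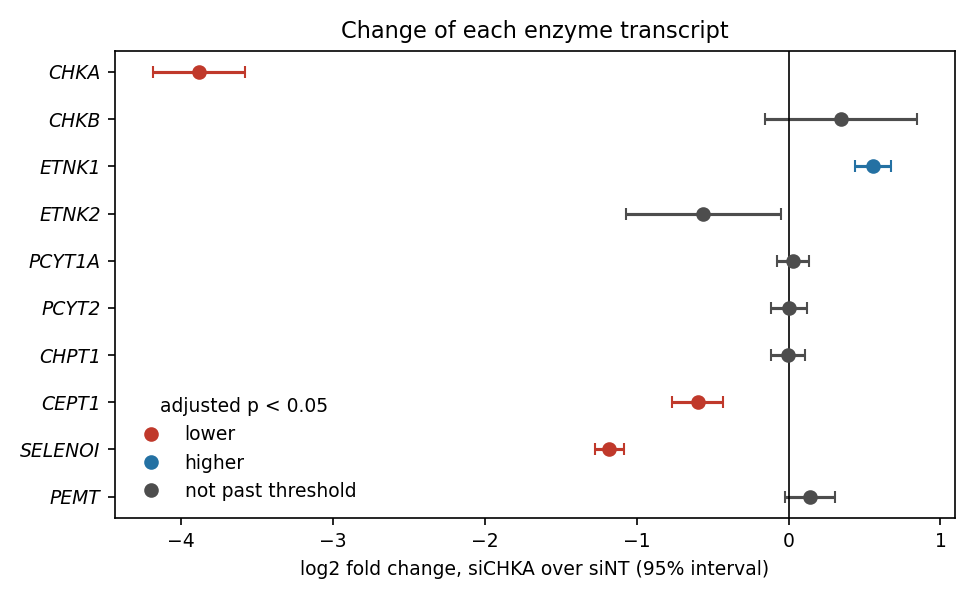
Log2 fold change of each transcript, siCHKA over siNT, with its 95% interval from edgeR's quasi-likelihood test (red lower, blue higher, grey not past an adjusted p of 0.05). CHKA at -3.88 and SELENOI at -1.18 moved farthest, and the intervals of CHKB and ETNK2 are the widest.

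The next question was whether the other kinases of the pathway changed once CHKA was low. CHKB, the second choline kinase, ranged from 0.726 to 1.77 CPM after siCHKA (median 1.23) and from 0.654 to 1.24 CPM after siNT (median 0.950). The groups overlapped, and 3 siCHKA samples lay above all siNT samples while replicates 3 and 5 lay near the bottom of the siNT range. The log2 fold change of 0.34 ± 0.24 (SE) did not pass edgeR's quasi-likelihood test (adjusted p = 0.216), with a 95% interval from 89.8% to 179% of the siNT level.

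These CHKB values rest on 7 to 33 counts per sample. In GENCODE 44, all but 73 of the 1474 bases of the CHKB transcript are also exons of the readthrough gene CHKB-CPT1B, and a read on 2 genes was left out by the counting. CHKB-CPT1B itself had 0 counts in every sample. The level of CHKB relative to CHKA therefore could not be read from these tables, and no joint choline kinase level is given. Without siCHKA replicates 1, 3 and 5, CHKB passed the test as higher (log2 fold change 0.59, edgeR adjusted p = 0.0366), and without replicates 2, 4 and 6 the value was -0.01.

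ETNK1, an ethanolamine kinase, was the 1 transcript of the pathway that rose. It ranged from 68.8 to 80.3 CPM after siCHKA (median 75.9) and from 44.8 to 55.8 CPM after siNT (median 51.6). Every siCHKA sample lay above every siNT sample, and both replicate sets contributed, with 75.6 to 76.6 CPM in replicates 1, 3 and 5 and 68.8 to 80.3 CPM in replicates 2, 4 and 6. The rise was 1.47-fold, a log2 fold change of 0.55 ± 0.06 (SE; edgeR's quasi-likelihood test, adjusted p = 1.67e-07), with a 95% interval from 135% to 159% of the siNT level. An exact permutation test (two-sided) gave p = 0.00216, the smallest that 6 against 6 samples allow. Among the 14501 genes, 2164 rose by more.

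ETNK2, the paralogue of ETNK1, was expressed at a low level, on 14 to 54 counts per sample. It ranged from 0.804 to 1.50 CPM after siCHKA (median 1.40) and from 0.869 to 2.42 CPM after siNT (median 1.95). The groups overlapped, mainly through siNT replicates 1 and 3, which were the lowest of the controls. The log2 fold change was -0.56 ± 0.24 (SE), just outside the threshold of edgeR's quasi-likelihood test (adjusted p = 0.0545), and without siNT replicate 3 it was -0.72 (adjusted p = 0.00864). It also passed without siNT replicate 1 (-0.64, edgeR adjusted p = 0.0381), siCHKA replicate 2 (-0.62, 0.0499) or siCHKA replicate 6 (-0.63, 0.0490). With any other single sample left out ETNK2 did not pass (-0.61 to -0.45, edgeR adjusted p from 0.0556 to 0.144). Nor did it pass with total counts (-0.41, edgeR adjusted p = 0.155). The exact permutation test (two-sided) on all samples gave p = 0.117.

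Per kilobase of transcript free of overlapping genes, which allows levels of different genes to be set side by side, ETNK1 and ETNK2 together rose from 7.98 ± 0.40 to 11.1 ± 0.47 CPM per kilobase (SD, n = 6). The lowest siCHKA sum (10.4) was above the highest siNT sum (8.42). ETNK2 made up 9.36% ± 3.36 of the sum after siNT and 4.58% ± 1.33 after siCHKA. These sums were not tested, as they were formed from chosen genes.

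The cytidylyl transferases, which catalyse the step held to be rate-limiting in each branch, did not pass the test in either branch. PCYT1A, which makes CDP-choline, ranged from 90.7 to 108 CPM after siCHKA (median 103) and from 92.3 to 101 CPM after siNT (median 100.4). The siCHKA samples spread to both sides of the siNT range, with replicates 1, 3 and 5 at 104 to 108 CPM and replicates 2, 4 and 6 at 90.7 to 102 CPM. The log2 fold change of 0.03 ± 0.05 (SE) did not pass the test (edgeR adjusted p = 0.647), and the 95% interval ran from 94.7% to 109.8% of the siNT level. PCYT1B, the other CTP:phosphocholine cytidylyl transferase gene, had at most 5 counts in any sample and failed the expression filter.

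PCYT2, the ethanolamine counterpart of PCYT1A, ranged from 79.3 to 93.0 CPM after siCHKA (median 84.8) and from 76.5 to 95.7 CPM after siNT (median 84.7). The siCHKA samples all fell within the siNT range. The log2 fold change was 0.00 ± 0.06 (SE; edgeR adjusted p = 0.975), with a 95% interval from 92.2% to 109% of the siNT level. Of the PCYT2 transcript, 1948 bases overlap NPB on the other strand, and NPB itself had 13 to 48 counts per sample.

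**Figure D3:**
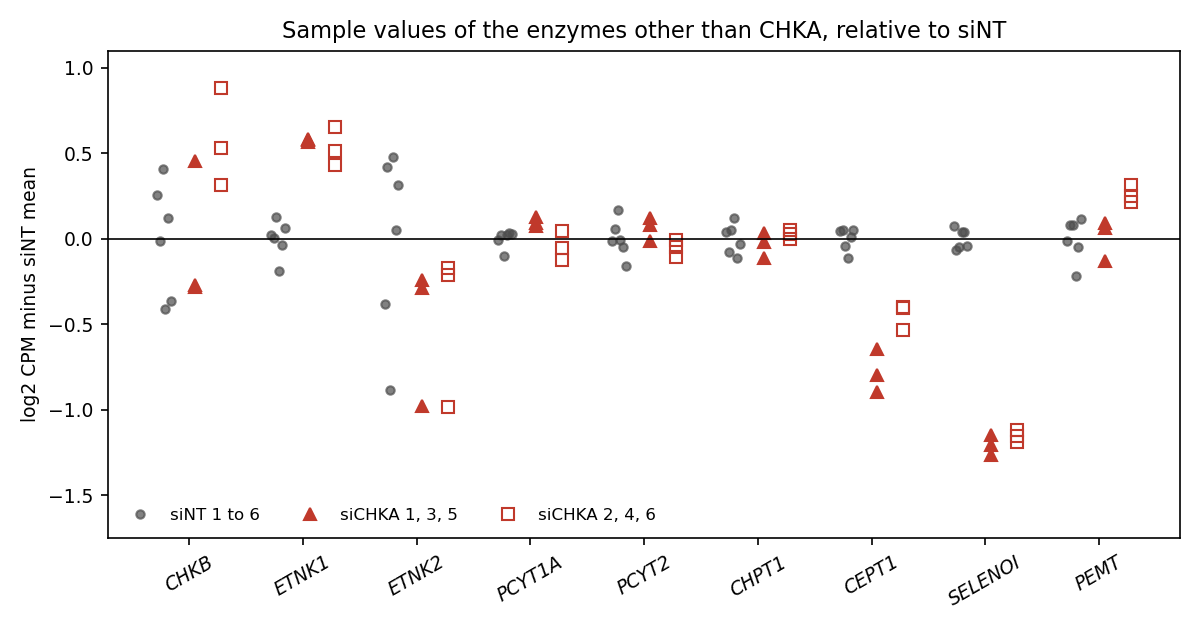
Log2 CPM of the 9 enzymes other than CHKA in each sample, minus the siNT mean of that gene, for siNT (grey circles), siCHKA replicates 1, 3 and 5 (filled triangles) and siCHKA replicates 2, 4 and 6 (open squares). The sets of siCHKA replicates separate for CEPT1, PEMT and PCYT1A, and SELENOI, CEPT1 and ETNK1 lie clear of siNT in both sets. The sets also stood apart over many other genes, and the share of all tested genes that separate was not determined.

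Of the 3 phosphotransferases, which complete each branch, 2 fell and 1 did not pass the test. CHPT1, which makes phosphatidylcholine, ranged from 588 to 658 CPM after siCHKA (median 643) and from 589 to 693 CPM after siNT (median 638). The groups overlapped, with siNT replicate 4 the highest. The log2 fold change was -0.00 ± 0.05 (SE; edgeR adjusted p = 0.952), with a 95% interval from 92.4% to 108% of the siNT level.

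CEPT1, which uses either CDP-alcohol, ranged from 30.9 to 43.6 CPM after siCHKA (median 38.2) and from 53.1 to 59.6 CPM after siNT (median 58.6). All siCHKA samples lay below all siNT samples, with replicates 1, 3 and 5 (30.9 to 36.7 CPM) below replicates 2, 4 and 6 (39.6 to 43.6 CPM). CEPT1 fell to 66.0% of the siNT level (95% interval 58.9% to 74.0%), a log2 fold change of -0.60 ± 0.08 (SE; edgeR's quasi-likelihood test, adjusted p = 3.93e-06; exact permutation test p = 0.00216). The fall was -0.45 without replicates 1, 3 and 5 and -0.77 without replicates 2, 4 and 6, past the threshold both times.

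SELENOI, a selenoprotein that makes phosphatidylethanolamine from CDP-ethanolamine, fell the most after CHKA. It ranged from 83.0 to 91.7 CPM after siCHKA (median 88.4) and from 190.4 to 209 CPM after siNT (median 199). The groups were far apart relative to their spread, and the replicate sets within siCHKA overlapped. SELENOI fell to 44.2% of the siNT level (95% interval 41.4% to 47.2%), a log2 fold change of -1.18 ± 0.04 (SE; edgeR's quasi-likelihood test, adjusted p = 8.76e-13; exact permutation test p = 0.00216). There were 452 genes that fell by more. The 95% intervals of the log2 fold changes of SELENOI (-1.27 to -1.08) and CEPT1 (-0.76 to -0.43) did not overlap.

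Summed per kilobase, SELENOI and CEPT1, the enzymes that accept CDP-ethanolamine, went from 51.3 ± 1.37 to 28.3 ± 2.57 CPM per kilobase (SD, n = 6). CEPT1 made up 50.9% ± 1.70 of that sum after siNT and 60.5% ± 3.29 after siCHKA. CHPT1 and CEPT1, the enzymes that accept CDP-choline, summed to 482 ± 26.7 CPM per kilobase after siNT and 472 ± 20.4 after siCHKA, with ranges that overlapped. CEPT1 was a small part of it, at 5.44% ± 0.49 after siNT and 3.64% ± 0.39 after siCHKA.

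PEMT ranged from 22.1 to 30.2 CPM after siCHKA (median 27.0) and from 20.8 to 26.3 CPM after siNT (median 24.8). The groups overlapped through replicates 1, 3 and 5 (22.1 to 25.8 CPM), while replicates 2, 4 and 6 (28.1 to 30.2 CPM) lay above every siNT sample. The log2 fold change of 0.14 ± 0.08 (SE) did not pass the test (edgeR adjusted p = 0.128), with a 95% interval from 98.3% to 124% of the siNT level. PEMT passed the test as higher without replicates 1, 3 and 5 (0.25, edgeR adjusted p = 0.00714) and without replicate 1 alone (0.19, edgeR adjusted p = 0.0299). Without replicates 2, 4 and 6 it was at 0.0095 (edgeR adjusted p = 0.932).

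Ordered by level per kilobase, and leaving out CHKB, siNT cells held CHPT1 far above the rest at 456 ± 27.5 CPM per kilobase (SD, n = 6). PCYT2 (27.2), CEPT1 (26.1), SELENOI (25.2), PEMT (23.8), CHKA (19.5) and PCYT1A (18.4) followed as a chain in which each overlapped the next, and ETNK1 (7.24) and ETNK2 (0.743) stood below them. After siCHKA the order was CHPT1 (454), PCYT2 (27.3), PEMT (26.2), PCYT1A (18.8), CEPT1 (17.2), SELENOI (11.1), ETNK1 (10.6), CHKA (1.32) and ETNK2 (0.507). In that group PCYT2 overlapped PEMT, PCYT1A overlapped CEPT1 and SELENOI overlapped ETNK1, while the other neighbours did not overlap. CHKA moved from between PEMT and PCYT1A to between ETNK1 and ETNK2.

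This order depends on the single canonical transcript taken for each gene. It also depends on leaving out bases that overlap a gene on the other strand. Those bases would be counted if the reads had been assigned by strand, a setting not given in the sources used here. Per kilobase of the whole transcript, a choice added after the data were seen, PCYT2 was at 16.8 ± 1.26 CPM after siNT, below PCYT1A (17.8), and CHKA, whose range overlapped that of PCYT2, was next above ETNK1. After siCHKA PCYT2 was at 16.9 ± 0.992, below CEPT1 (17.2). On either length CHPT1 was the highest and ETNK1 and ETNK2 the lowest after siNT, and CHKA lay between ETNK1 and ETNK2 after siCHKA.

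The genes whose profile over the 12 samples was nearest to that of CHKA were sought among 9508 genes with a siNT mean of at least 10 CPM, by the Euclidean distance of log2 CPM centred on each gene's siNT mean. A distance centred in this way includes the size of the fall between the groups. Nearness therefore need not mean that a gene varied with CHKA from sample to sample. IDH2, an isocitrate dehydrogenase of mitochondria, was nearest at a distance of 1.17, with 17.9 ± 0.981 CPM after siCHKA and 289.7 ± 14.2 CPM after siNT (SD, n = 6). IGF1, a growth factor, followed at 1.26, with 2.77 ± 0.171 and 36.4 ± 2.69 CPM. SEC23A, a subunit of the COPII coat, came next but much farther off at 3.10, with 41.7 ± 1.98 and 274.6 ± 10.3 CPM. CHKB and ETNK2 were below that level and not part of the search.

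Around the pathway, 33 further genes of phospholipid metabolism were examined in 6 groups, of which 32 passed the filter. Among them 13 were lower, 6 were higher and 13 did not pass the test, with a median log2 fold change of -0.07 against 0.03 over all tested genes, of which 30.1% were lower and 32.1% higher. The smaller groups are given as counts beside that same background. Scaled by total counts instead, the same genes divided into 9 lower and 10 higher, so the balance of directions over the 32 turned with the scaling. Diacylglycerol supply then had 3 lower and 4 higher, the CDP-diacylglycerol branch 0 and 3, and methyl donor supply 0 and 1. The other groups kept their counts.

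The enzymes that supply diacylglycerol, the lipid partner in the last step of both branches, moved in both directions, with 5 lower, 3 higher and 3 not past the threshold of 11 (median 0.11). The glycerol-3-phosphate acyltransferase GPAM rose from 97.7 ± 3.45 to 124.9 ± 5.83 CPM (log2 fold change 0.35, edgeR adjusted p = 3.45e-06), and all siCHKA samples lay above all siNT samples. The phosphatidate phosphatase LPIN1 fell from 159 ± 15.7 to 106 ± 11.6 CPM (-0.58, edgeR adjusted p = 4.28e-06). The acyltransferase AGPAT5 fell by 0.44 on the log2 scale, and GPAT3 fell by 1.14 but from a level of only 0.989 ± 0.120 CPM. GPAT4 (-0.23) and AGPAT1 (-0.17) were lower and AGPAT3 (0.21) and LPIN2 (0.22) higher, but GPAT4 and AGPAT1 were not past the threshold with total counts, AGPAT3 and LPIN2 not without siCHKA replicates 1, 3 and 5, and AGPAT1 not without replicates 2, 4 and 6. AGPAT2, AGPAT4 and LPIN3 did not pass the test, but without siCHKA replicates 1, 3 and 5 AGPAT2 (0.26) and LPIN3 (0.57) passed as higher, as did AGPAT2 with total counts (0.33).

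Phosphatidylserine is an alternative source of phosphatidylethanolamine, through exchange of the head group and decarboxylation. Of its 3 genes, 2 were lower and 1 did not pass the test (median -0.42). PTDSS1, which exchanges the choline of phosphatidylcholine for serine, fell from 209.7 ± 19.4 to 156 ± 4.60 CPM (-0.42, edgeR adjusted p = 6.76e-06). PISD, the mitochondrial decarboxylase, fell from 35.6 ± 3.79 to 25.8 ± 1.98 CPM (-0.47, edgeR adjusted p = 3.27e-05). PTDSS2, which acts on phosphatidylethanolamine, was at 22.1 ± 2.32 CPM after siNT and 21.1 ± 1.11 after siCHKA. In both genes that fell, every siCHKA sample lay below every siNT sample.

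**Figure D4:**
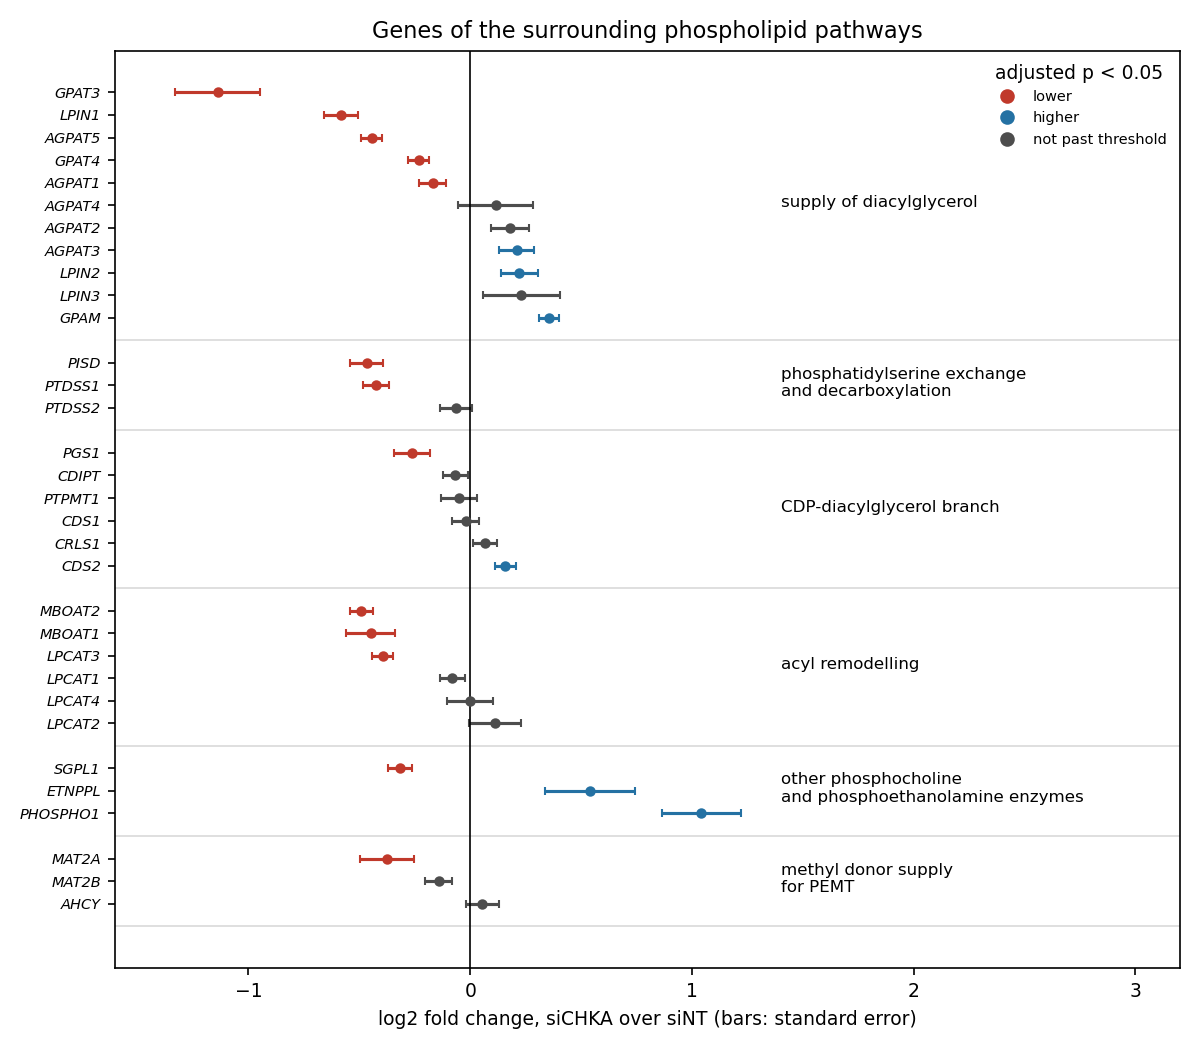
Log2 fold change, siCHKA over siNT, of the 32 tested genes of the surrounding phospholipid pathways with their standard errors, grouped by role (red lower, blue higher, grey not past an adjusted p of 0.05). The falls of GPAT3 (-1.14) and LPIN1 (-0.58) and the rise of PHOSPHO1 (1.04) are the farthest from 0.

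The remodelling enzymes, which reacylate lysophospholipids, had 3 lower, 0 higher and 3 not past the threshold of 6 (median -0.24). MBOAT2 fell from 320.5 ± 19.9 to 228 ± 11.3 CPM (-0.49, edgeR adjusted p = 3.92e-07) and LPCAT3 from 125 ± 2.61 to 95.0 ± 5.67 CPM (-0.40, edgeR adjusted p = 1.24e-06), while MBOAT1 fell by 0.45 on the log2 scale. Of the LPCAT3 transcript, 1506 bases overlap EMG1 on the other strand. LPCAT1, LPCAT2 and LPCAT4 did not pass the test, but without siCHKA replicates 1, 3 and 5 LPCAT1 passed as lower (-0.20) and LPCAT4 as higher (0.20), and without replicates 2, 4 and 6 LPCAT4 passed as lower (-0.26).

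The branch through CDP-diacylglycerol, which leads to phosphatidylinositol and cardiolipin, had 1 lower (PGS1, -0.26), 1 higher (CDS2, 0.16) and 4 not past the threshold of 6. Neither held throughout, since PGS1 was not past the threshold with total counts or without siCHKA replicates 1, 3 and 5, and CDS2 not without those replicates. With total counts CDS1 (0.13) and CRLS1 (0.22) passed as higher. Of 3 genes that supply the methyl donor used by PEMT, MAT2A was lower (-0.38, edgeR adjusted p = 0.0140), but not past the threshold with total counts (-0.22) or without siCHKA replicates 1, 3 and 5 (-0.11), and at -0.71 without replicates 2, 4 and 6. MAT2B and AHCY did not pass the test, but MAT2B passed as lower without replicates 2, 4 and 6 (-0.27) and with RLE scaling (-0.15), and AHCY passed as higher with total counts (0.21).

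Among the other enzymes of phosphocholine and phosphoethanolamine, 2 were higher and 1 lower of 3 tested. PHOSPHO1, a phosphatase of both compounds, rose from 1.41 ± 0.473 to 2.94 ± 0.436 CPM (1.04, edgeR adjusted p = 7.21e-05), and the groups did not overlap. SGPL1, which releases phosphoethanolamine from sphingosine 1-phosphate, fell from 76.0 ± 5.69 to 61.0 ± 2.36 CPM (-0.32, edgeR adjusted p = 6.47e-05). ETNPPL, which breaks phosphoethanolamine down, was higher (0.54, edgeR adjusted p = 0.0295) at a mean of 0.993 CPM after siCHKA, and not past the threshold without siCHKA replicates 1, 3 and 5 or without replicates 2, 4 and 6.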

How the data were processed

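RNA of 12 C4-2 samples was prepared with a TruSeq kit. Per the labels it came from flow-sorted cells, with no gate given. The authors aligned reads to GRCh37 with TopHat 2.0.4, counted them on Ensembl 64 genes with HTSeq 0.5.3p9 and deposited raw counts in 4 files per sample. Reads on more than 1 gene or with several alignments were left out. The strand setting is not given in the sources used here, so antisense reads cannot be told apart.

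The 48 files were summed per sample, and the files of a sample differed by no more than counting noise (chi-square per degree of freedom 0.983 to 1.01). Reads on no feature were 3.95% to 5.97%. Symbols, exons and GRCh38 coordinates came from GENCODE 44, by Ensembl identifier (44824 of 54127 matched), and no coordinates were converted. A count of 3 equals 0.124 to 0.281 CPM, a floor for counting error only.

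The summed counts were filtered with filterByExpr, scaled by TMM and fitted in edgeR 4.0.16 (R 4.3.3), and siCHKA was tested against siNT by the quasi-likelihood F test with no covariate. The threshold was 0.05 on p-values adjusted after Benjamini and Hochberg over all tested genes. The standard error was taken as the size of the log2 fold change over the square root of F. The log2 CPM used a prior count of 2, and exact permutation tests used scipy 1.17.1. The fit was tested on simulated data. Per-kilobase levels divide CPM by the bases of each gene's canonical transcript that are not overlapped by another gene. Alternatives were DESeq2 1.42.0, RLE scaling, total counts, other filters, 1 count file, a replicate block, single samples left out and sets of replicates.

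The 10 genes and the lists around them were chosen with earlier results of these data known. Named were all 10, list members past the threshold with full values for at most 3 in each direction, and the 3 nearest profiles to CHKA. Other list members are named with values outside that rule. Some markers of the cell line are not reported here.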

Additional observations from a re-analysis of the deposited data

Results flagged for a closer look

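Each of the 10 transcripts was examined in each group for a sample far from the others. Of these 20 groups, 1 was marked, and chance marks about 1 in 20. PCYT1A in siNT replicate 3 was at 92.3 CPM, while the other 5 siNT samples lay between 98.5 and 101 CPM, so that the gap made up 0.695 of the range of the group.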

How the results depend on the processing

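CHKA, SELENOI, CEPT1 and ETNK1 kept their direction and their side of the threshold under all 23 alternatives, with log2 fold changes of -4.27 to -3.59, -1.21 to -1.03, -0.77 to -0.45 and 0.50 to 0.71. Over all genes, 2995 to 4686 were lower and 3413 to 6666 higher. The number of the 10 enzymes that were higher was 5 with total counts, 3 without siCHKA replicates 1, 3 and 5, and between 1 and 2 when single samples were left out, the 2 being without siCHKA replicate 1.

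With total counts PCYT1A (0.18), PCYT2 (0.15), CHPT1 (0.15) and PEMT (0.29) were past the threshold. Without siCHKA replicates 1, 3 and 5, CHKB (0.59) and PEMT (0.25) were past it, and the values of PCYT1A (-0.050), CHPT1 (0.018) and PCYT2 (-0.064) turned. Without replicates 2, 4 and 6 CHKB was at -0.0064. ETNK2 was past the threshold with no filter (-0.59) and with replicates 4 to 6 only (-0.79), where PCYT1A was at -0.035. Values that crossed 0 but stayed near it were PCYT1A (-0.00092) and PCYT2 (-0.027) with no filter, PCYT2 with RLE (-0.0052), DESeq2 (-0.020) and replicates 1 to 3 only (-0.067), and CHPT1 with at least 10 counts in every sample (0.021) and with 1 count file (0.046). Leaving out single samples gave ranges of 0.20 to 0.46 for CHKB, -0.72 to -0.45 for ETNK2, 0.00010 to 0.057 for PCYT1A, -0.029 to 0.017 for CHPT1, -0.031 to 0.028 for PCYT2 and 0.089 to 0.19 for PEMT. ETNK2 was past the threshold without siCHKA replicate 2 or 6 and without siNT replicate 1 or 3. The cause of these changes was not tested. With 1 count file CHKB and ETNK2 failed the filter and have no value.

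A replicate block gave 4273 lower and 4494 higher genes and changed no call among the 10. Deviations of samples with the same number correlated at -0.51 to 0.58, and 1 of 6 numbers matched its own partner best. Whether samples with the same number share a culture or a batch was not tested. Low counts limit CHKB and ETNK2, which had 7 to 54 counts per sample, and CHKB also shares most of its bases with CHKB-CPT1B.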
